A study of Mus musculus with 30 samples.

Results

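The aorta of B cell-deficient mice was compared between 42 and 7 days after calcium chloride had been placed around it. Of the 30 arrays of the series, 6 belong to this comparison, and they were taken by their labels: the 3 of uMT mice at day 42 after CaCl2 and the 3 of uMT mice at day 7 after CaCl2. The uMT line carries a disrupted membrane form of the immunoglobulin heavy chain mu and therefore lacks mature B cells from birth, in every tissue. The labels give strain C57BL/6 for all mice and 0.5 M CaCl2 for the operation, with saline applied in its place in the sham groups. Beside the 2 groups compared, the text uses uMT aorta before any operation, uMT aorta 7 and 42 days after sham, and wild type (WT) aorta 7 and 42 days after CaCl2, each with 3 arrays. The labels call the tissue of every sample an abdominal aortic aneurysm, the unoperated and sham samples included, and they give no age, no sex and no statement that the replicates were separate animals, so p-values measure the spread between these samples.

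Calcium chloride on the outside of the abdominal aorta is a mouse model of aneurysm in which inflammation and breakdown of the elastic layers of the wall widen the vessel over weeks. Healing tissue passes through an early phase, in which fibroblasts divide and lay down a provisional matrix, and a later one, in which that matrix is remodelled. Elastic fibres are built from elastin on a scaffold of microfibrils and are joined by lysyl oxidase. Major histocompatibility complex (MHC) class II molecules present antigen to helper T cells and are carried by dendritic cells, B cells and activated macrophages.

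Levels are log2 signal minus the 75th percentile of the same array, and changes are differences of log2 means, day 42 minus day 7, ± the standard error of the fit, with 3 arrays in each group. A gene was called when its p-value from limma, adjusted over 23267 genes, was below 0.05. Levels of different genes come from different probes and are not set against each other. The day 42 arrays were on the whole dimmer: the 75th percentile of signal was 226, 251 and 166 intensity units in day 7 replicates 1 to 3 and 82.3, 141 and 174 in day 42 replicates 1 to 3, and the share of probes well above background was 50.3% to 53.3% at day 7 and 43.2% to 52.4% at day 42. All 6 arrays lay on 1 slide, the day 7 arrays beside each other and the day 42 arrays after them, so position on the slide and time cannot be told apart. Arrays correlated at 0.945 to 0.973 within day 7, 0.962 to 0.98 within day 42 and 0.921 to 0.966 between the times. Day 7 replicate 1 differed from the other day 7 arrays in several inflammatory genes, with values given beside each.

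From day 7 to day 42, 328 genes rose, 1.41% of those tested, and 201 fell, 0.864%, while 5444 genes (23.4%) had an unadjusted p below 0.05. Values of the 3 arrays of one time lay wholly above those of the other for 1983 genes that were higher at day 42 (8.52%) and 3635 that were lower (15.6%), and the median change of all genes was -0.05. Among gene lists, members called lower were most numerous in the elastic fibre (5 of 20) and wound matrix (3 of 20) lists, and members called higher in the dendritic cell and MHC class II (6 of 17), CXC chemokine (4 of 13), T and NK cell (4 of 18) and complement (3 of 18) lists. In each of these lists most members were not called. The number of calls depends on how the spread is estimated: the fit used the 12 CaCl2 arrays of both genotypes, and the 6 arrays alone gave 1 gene higher and 2 lower. Leaving out 1 of the 6 arrays gave 44 to 917 genes higher and 21 to 425 lower: 66 and 21 without day 7 replicate 2, 51 and 28 without day 42 replicate 1, 44 and 24 without day 42 replicate 2, 917 and 375 without day 7 replicate 1, and 792 and 425 without day 42 replicate 3. It depends on scaling as well, since 62% of the calls were rises here, 80.3% when arrays were centred on probes detected on every array, and 50.1% after quantile normalization.

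**Figure D1:**
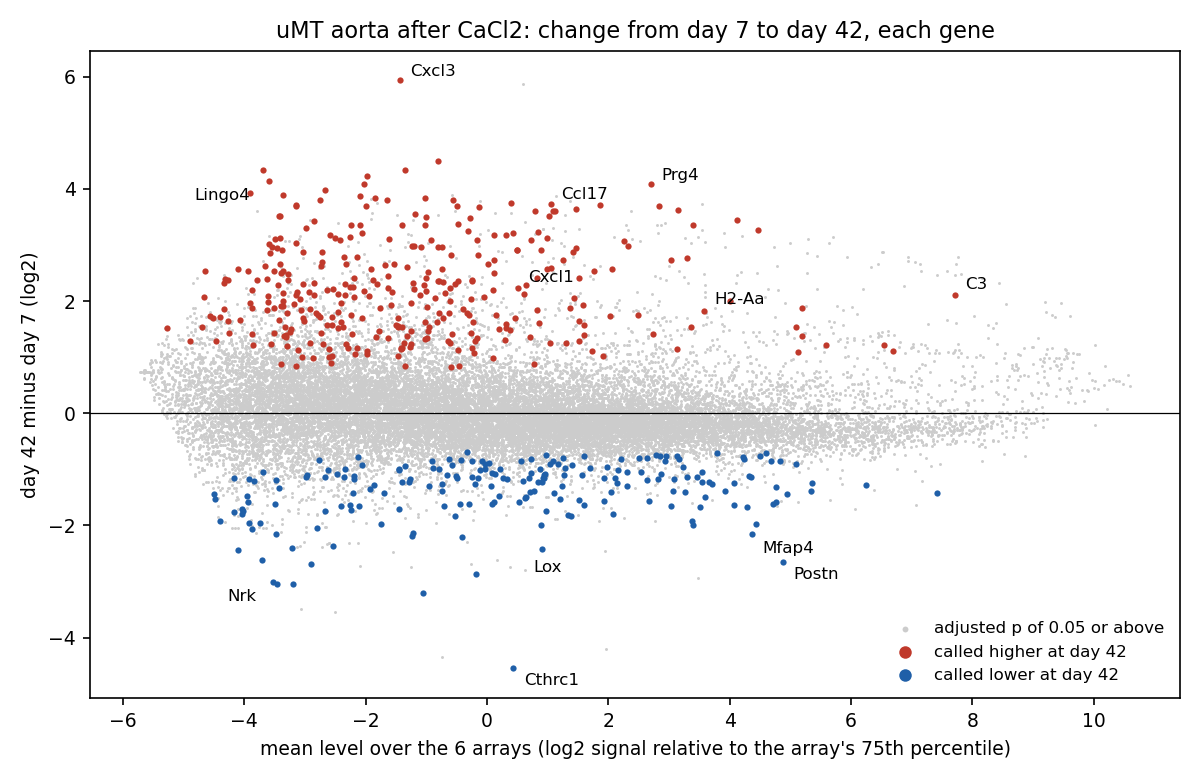
Each point is 1 of 23267 genes. The x axis gives its mean level over the 6 arrays (log2 signal minus the array's 75th percentile) and the y axis its change from day 7 to day 42 (log2). Red points are the 328 genes called higher, blue points the 201 called lower, and grey points all others. The lowest blue point is Cthrc1 at -4.55 and the highest red point is Cxcl3 at 5.94.

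The largest fall was that of Cthrc1, a secreted collagen triple helix repeat protein made by activated fibroblasts in injured arteries. Its level was 3.18, 2.77 and 2.18 at day 7 and -1.6, -2.08 and -1.82 at day 42. All day 42 arrays were far below all day 7 arrays, a change of -4.55 ± 0.53, or 23.3-fold (adjusted p = 0.0041). Before any operation the gene stood at -3.56 ± 0.82 (SD, n = 3), and 7 days after sham at 1.7 ± 0.22. The probe lies at chr15:38918358-38918417 (mm9). Postn codes for periostin, a matricellular protein of wounds and scars. It read 6.63, 6.27 and 5.69 at day 7 and 3.1, 3.8 and 3.76 at day 42, a fall of 6.26-fold (-2.65 ± 0.32, adjusted p = 0.00535). Aspn codes for asporin, a small leucine-rich proteoglycan that binds collagen. Its values were 2.92, 1.83 and 0.94 at day 7 and -0.07, -0.1 and -0.15 at day 42, so the day 42 arrays were close together and below a day 7 group that was spread out (-2 ± 0.43, adjusted p = 0.0446).

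Of 20 measured members of a wound matrix list, these 3 fell and none rose, with a median change of -0.55 against -0.05 for all genes. A median of this kind cannot tell fewer cells of a type from less RNA per cell, and the same holds for every list below. The median was -0.31 without day 42 replicate 1 and -0.36 without day 7 replicate 1. The count was 2 without day 7 replicate 2 or without any 1 of the day 42 arrays, 4 without day 7 replicate 1, and 0 with array signal as a covariate. The collagen list moved less. Of its 19 members 17 had a negative change, but none was called. In 7 the day 42 values lay wholly below those of day 7, against 15.6% of all genes. The median was -0.57, and -0.31 without day 7 replicate 1 and -0.36 without day 42 replicate 3. Col5a1, a fibril-regulating collagen chain, came closest (-1.65 ± 0.4, adjusted p = 0.0553), at 6.16, 5.36 and 5.28 on day 7 and 4.13, 4.04 and 3.67 on day 42.

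Elastic fibre genes were lower at day 42 over most of the list. Of the called members only the microfibril genes Mfap4 and Mfap2 stayed called whichever array was left out. Of 20 measured members 5 fell and 1 rose, and the median change was -0.89. In the lower direction 15 had no overlap, against 15.6% of all genes. Mfap4, a microfibril-associated glycoprotein that binds elastin and fibrillin, read 5.03, 5.47 and 5.84 at day 7 and 3.09, 3.76 and 3.02 at day 42 (-2.16 ± 0.26, adjusted p = 0.00443). For Mfap2, another microfibril protein, the values were 5.29, 5.51 and 5.44 against 3.28, 3.94 and 3.11 (-1.97 ± 0.25, adjusted p = 0.00692). In both genes the 2 groups were more than 1 unit apart at their nearest arrays. Mfap5, its relative, fell from 6.88, 6.85 and 6.91 to 5.8, 5.68 and 5.32 (-1.28 ± 0.23, adjusted p = 0.0243). Its 3 day 7 values were almost the same, but it was called in only 3 of the 6 fits without 1 array, with adjusted p up to 0.0793.

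Lox, the lysyl oxidase that starts the crosslinks of elastin and collagen, read 1.78, 2.1 and 2.46 at day 7 and -1.52, 0.22 and 0.39 at day 42. Replicate 1 of day 42, the dimmest of the 6 arrays, was the lowest by more than 1 unit, and the change was -2.42 ± 0.46 (adjusted p = 0.0296). Efemp2, also known as fibulin-4 and needed for elastic fibre assembly, fell by a smaller amount, from 5.53, 5.44 and 5.66 to 4.65, 4.8 and 4.47 (-0.9 ± 0.18, adjusted p = 0.0334). Its relative Efemp1, fibulin-3, was the 1 member that rose, from 0.86, 1.03 and 0.5 to 2.35, 2.47 and 2.31 (1.58 ± 0.25, adjusted p = 0.0179). That call was lost without day 42 replicate 1 or 2. Elastin itself, Eln, read 3.54, 5.23 and 6.05 at day 7 and 1.14, 2.51 and 2.39 at day 42. The groups did not overlap, but the change of -2.93 ± 0.8 missed the threshold (adjusted p = 0.0754). Between 2 and 8 members of the list were called lower when 1 of the 6 arrays was left out, 2 without day 7 replicate 2 or day 42 replicate 1 or 2, 3 without day 7 replicate 3 and 8 without day 7 replicate 1, and none with array signal as a covariate.

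**Figure D2:**
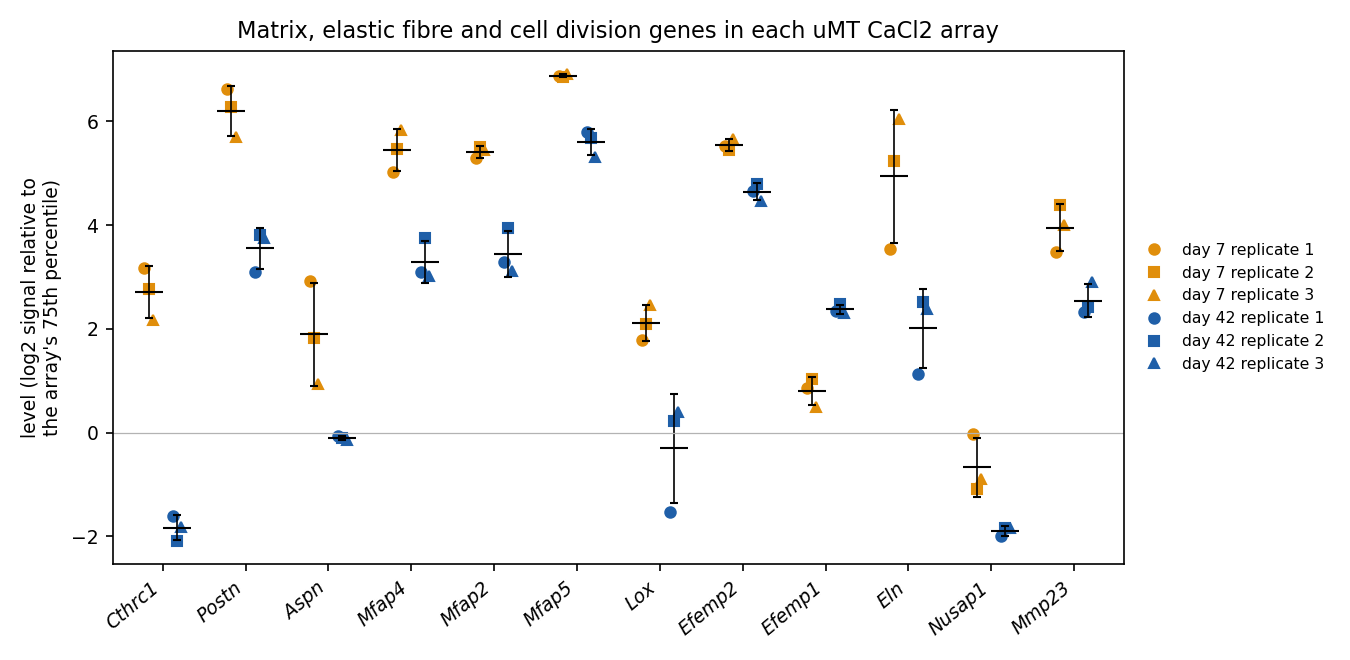
Levels of 12 genes (log2 signal minus the array's 75th percentile) in the 3 day 7 arrays, orange, and the 3 day 42 arrays, blue, of uMT aorta after CaCl2. Bars are the mean and SD of 3 arrays. Cthrc1, Postn and the Mfap genes have every day 42 array below every day 7 array, Efemp1 has the reverse order, and Eln shows the spread of its day 7 group. Heights of different genes are not comparable.

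Cell division genes had a negative change in all 20 measured members, with a median change of -1.36. In 15 of them the groups did not overlap, against 15.6% of all genes in the lower direction. Only Nusap1, a spindle protein, was called (-1.23 ± 0.27, adjusted p = 0.048), at -0.03, -1.08 and -0.9 on day 7 and -2, -1.84 and -1.84 on day 42. Cdk1, the kinase that starts mitosis, had 0.85, -0.74 and -0.78 against -2.03, -2.15 and -2.03 (-1.85 ± 0.43, adjusted p = 0.053). Ccnb1, its cyclin partner, had 1.01, -0.17 and -0.02 against -1.81, -1.26 and -1.5 (-1.8 ± 0.43, adjusted p = 0.0542). In all 3 genes day 7 replicate 1 was the highest array and the day 42 arrays were close together. The mean level of the list was between -0.25 and 1.11 in the day 7 arrays and between -1.21 and -0.84 in those of day 42. The count of called members ranged from 0 to 2 when 1 array was left out, 0 without day 7 replicate 2 or any 1 day 42 array and 2 without day 7 replicate 1 or 3. Without day 7 replicate 1 the median was -0.87.

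Several of the other large falls ended below background. Tnmd codes for tenomodulin, a membrane protein of tendon and ligament. Its values were -1.52, -1.61 and -1.88 at day 7 and -4.59, -4.69 and -4.86 at day 42. No day 42 array was well above background, so the fall was at least 2.58-fold (adjusted p = 0.0041). Nrk, a Nik-related kinase, went from -2.1, -2.19 and -1.79 to -4.72, -5.34 and -5.03, likewise below background, at least 2.02-fold lower (adjusted p = 0.000817). Its day 7 values lay within 0.5 units. The fall of Gdpd2, a glycerophosphodiester phosphodiesterase of bone-forming cells, was from 0.97, 0.65 and 0 to -2.97, -2.65 and -2.34 (-3.2 ± 0.42, adjusted p = 0.00839). Lurap1l fell from 0.53, 0.84 and 0.67 to -1.72, -1.59 and -1.24 (-2.2 ± 0.24, adjusted p = 0.00367). Among the 14 largest falls with a reference symbol the others were Capn6, a calpain relative without protease activity, Slc38a4, an amino acid transporter, Pgam2, the muscle phosphoglycerate mutase, Smtnl2, a smoothelin-like protein, and 6430411K18Rik, Ccnjl and Fhad1, with changes from -3.05 to -2.18 and adjusted p from 0.0151 to 0.0496. Of these 6430411K18Rik, Ccnjl and Fhad1 were below background on all day 42 arrays, at least 2.16-fold, 1.54-fold and 1.12-fold lower.

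The MHC class II genes that rose had no overlap between the times, as held for all 328 genes called higher. H2-Aa, the alpha chain of the I-A molecule, read 2.78, 2.7 and 2.51 at day 7 and 4.53, 4.53 and 4.42 at day 42. Within each time the 3 arrays were within 0.3 units, and the rise of 1.83 ± 0.2, or 3.56-fold, was called (adjusted p = 0.00367). H2-Ab1, the beta chain of the same molecule, had 6.27, 5.81 and 5.73 against 7.12, 7.38 and 6.95 (1.21 ± 0.2, adjusted p = 0.0192). For H2-Eb1, the beta chain of I-E, the values were 6.31, 6.04 and 6.02 against 7.05, 7.42 and 7.25 (1.11 ± 0.2, adjusted p = 0.0243). Cd74, the invariant chain that escorts class II molecules to the endosome, rose by 1.1 ± 0.23 (adjusted p = 0.0417), and H2-Oa, part of a modulator of peptide loading, by 1.17 ± 0.22 (adjusted p = 0.0298). Clec9a, a receptor for dead cells on cross-presenting dendritic cells, read -2.43, -3.01 and -2.47 at day 7 and -0.68, -0.32 and -0.43 at day 42 (2.16 ± 0.21, adjusted p = 0.00346).

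Of 17 measured members of the dendritic cell and MHC class II list these 6 rose, none fell, all 17 had a positive change and the median was 1.08. The mean level of the list was 0.26 to 0.96 in the day 7 arrays and 1.52 to 1.77 in the day 42 arrays. The count was 2 without day 7 replicate 2 or day 42 replicate 1 or 2, 10 without day 7 replicate 1, and 0 with array signal as a covariate. H2-Aa and Clec9a were called whichever 1 of the 6 arrays was left out, with adjusted p up to 0.0215 and 0.0214.

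Class II genes share a set of promoter boxes, read together by a factor complex that the activator CIITA joins, and the sequences are shown because these members all rose. Of the 6 genes called, 4 have an entry in the RefSeq promoter table (GRCm38.p6), and 3 of these hold the letters CTGATTGG, the core of the Y box that NF-Y binds, on the strand of the gene within 250 bases before the start. Both strands were searched. Over the 17 measured members of the list 11 have an entry and 3 hold the letters, while among the promoters of all genes in that table, 32851 in number, 1258 hold them, or 3.83%. The 150 bases before the start are given in the direction of the gene, with the Y box letters in capitals. H2-Aa is on the minus strand at chr17:34287824-34287973, H2-Eb1 on the plus strand at chr17:34305717-34305866, and H2-Oa on the plus strand at chr17:34092229-34092378.
H2-Aa: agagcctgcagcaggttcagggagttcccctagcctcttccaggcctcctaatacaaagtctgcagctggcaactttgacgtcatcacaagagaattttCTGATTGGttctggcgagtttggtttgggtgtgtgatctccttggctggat
H2-Eb1: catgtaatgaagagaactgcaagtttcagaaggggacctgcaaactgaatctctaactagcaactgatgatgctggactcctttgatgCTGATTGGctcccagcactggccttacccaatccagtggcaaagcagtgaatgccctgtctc
H2-Oa: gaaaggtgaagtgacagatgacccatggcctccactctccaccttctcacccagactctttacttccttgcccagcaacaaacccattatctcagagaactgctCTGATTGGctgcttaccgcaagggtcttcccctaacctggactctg
The letters begin 51 bases before the start in H2-Aa, 62 in H2-Eb1 and 46 in H2-Oa. A match is a description of the sequence and not a site shown to be bound.

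T cell genes were higher as well. Zap70, the kinase of the T cell receptor, read -0.81, -1.55 and -0.9 at day 7 and 0.83, 1.09 and 1.04 at day 42 (2.07 ± 0.24, 4.21-fold, adjusted p = 0.0041). Cd3g and Cd3d, chains of the T cell receptor complex, rose by 2.35 ± 0.33 (adjusted p = 0.0104) and 1.86 ± 0.34 (adjusted p = 0.0261). Cd3g went from -1.67, -2.68 and -1.59 to 0.16, 0.62 and 0.32, with replicate 2 the lowest at day 7. Cd2, an adhesion receptor of T and natural killer (NK) cells, rose by 1.49 ± 0.33 (adjusted p = 0.0485). These were 4 of 18 measured members of the T and NK cell list, none fell, all 18 changes were positive and the median was 0.96. Without 1 array the count lay between 1, without day 42 replicate 2, and 6, without day 7 replicate 1, and it was 2 without day 7 replicate 2 or day 42 replicate 1. With array signal as a covariate it was 0. Of the 18 members 7 were higher on both of the dim arrays described below than on their group mates, against 25.7% of all genes. In the other direction 4 were lower on both, against 20.2% of all genes.

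Complement gave 3 rises among 18 measured members, with none lower and a median of 0.46. C3, the central component that all activation routes cleave, read 6.34, 7.11 and 6.52 at day 7 and 9.15, 8.58 and 8.56 at day 42, a rise of 4.3-fold (2.11 ± 0.25, adjusted p = 0.00494). The nearest arrays of the groups were more than 1 unit apart. C4b, of the classical route, went from 4.68, 5.34 and 4.93 to 6.27, 6.24 and 6.07 (1.21 ± 0.2, adjusted p = 0.0212). Hc, which codes for C5, the start of the membrane attack complex, went from -2, -1.69 and -2.26 to -0.1, -0.35 and -1.11 (1.46 ± 0.28, adjusted p = 0.029). C3 was called without any 1 of the 6 arrays, while the list's median was 0.17 without day 7 replicate 3 and its count was between 1, without day 42 replicate 1 or 2, and 4, without day 7 replicate 1, and 0 with array signal as a covariate.

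**Figure D3:**
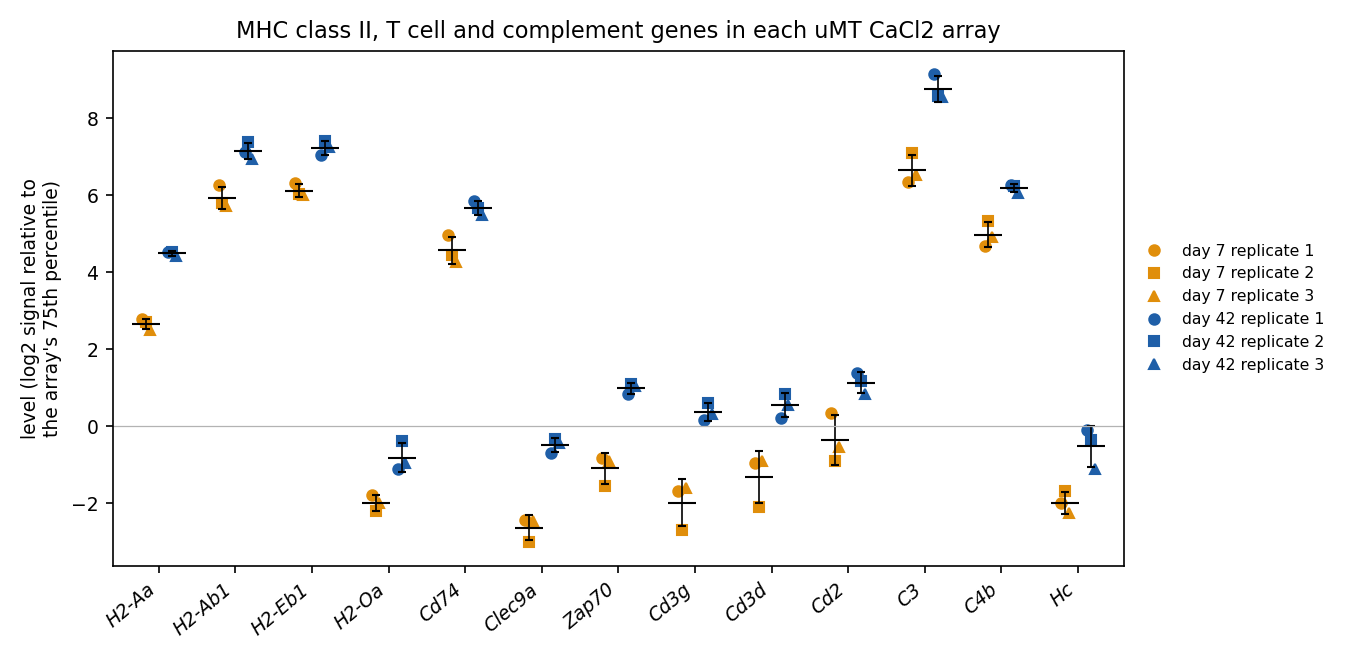
Levels of 13 genes of MHC class II and dendritic cells, T cells and complement (log2 signal minus the array's 75th percentile) in the 3 day 7 arrays, orange, and the 3 day 42 arrays, blue. Bars are the mean and SD of 3 arrays. In each gene every day 42 array is above every day 7 array, which holds for all 328 genes called higher. Examples are H2-Aa at 4.42 to 4.53 against 2.51 to 2.78 and C3 at 8.56 to 9.15 against 6.34 to 7.11. Heights of different genes are not comparable.

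CXC chemokines, which draw neutrophils and other leukocytes, had 4 rises, some with a wide spread at day 7. Cxcl3 read -1.54, -6.13 and -5.57 at day 7 and 1.52, 0.92 and 2.14 at day 42 (5.94 ± 1, adjusted p = 0.0215). Of the day 7 arrays 1 was well above background. Ppbp, the platelet basic protein, had -0.97, -4.33 and -3.84 against 1.67, 1.41 and 1.27 (4.5 ± 0.8, adjusted p = 0.0243), and Cxcl1 had 0.36, -1.01 and -1.16 against 1.39, 2.04 and 1.45 (2.23 ± 0.43, adjusted p = 0.0311). In these 3 genes day 7 replicate 1 was the highest of its group and still below all day 42 arrays. Cxcl13, the chemokine that draws B cells into follicles, was below background on all day 7 arrays and rose by at least 4.42-fold, to -1.69, -1.46 and -1.72 (adjusted p = 0.0434). Of 13 measured CXC chemokines these 4 rose and none fell (median 1.48, and 0.86 without day 7 replicate 2). The count was 0 without day 7 replicate 2 or day 42 replicate 1 or 2 and with array signal as a covariate, 2 without day 7 replicate 3, and 7 without day 7 replicate 1.

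Among 17 CC chemokines Ccl17 was the 1 called. This ligand of CCR4, made by dendritic cells and macrophages, read -0.36, -1.54 and -0.56 at day 7 and 2.59, 3.29 and 2.9 at day 42, a rise of 13.4-fold (3.74 ± 0.41, adjusted p = 0.00367), and it was called without any 1 of the 6 arrays. The probe lies at chr8:97335770-97335829 (mm9). After sham Ccl17 stood at -3.22 ± 0.61 (SD, n = 3) on day 7 and -1.06 ± 2.22 on day 42. Its CaCl2 change differed from the sham change by 1.58 ± 1.22 (adjusted p = 0.632 by limma). Ccl5, which draws T cells, was higher by 1.35 ± 0.31 (adjusted p = 0.0506). Ccl2, which draws monocytes, read 3.19, 1.13 and 1.18 at day 7 and 2.88, 3.47 and 3.01 at day 42, so the groups overlapped through day 7 replicate 1 (1.29 ± 0.48, adjusted p = 0.146). The median over the list was 0.94, and 0.55 without day 7 replicate 3, and 16 of 17 changes were positive.

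Among cytokine genes day 7 replicate 1 was often the highest array of its group. Lif, a cytokine of the interleukin 6 family, was the 1 called of 17 in the interleukin list, at 0.52, -0.69 and 0.16 against 4.02, 2.9 and 1.9 (2.94 ± 0.6, adjusted p = 0.0389). Its day 42 values were lower the brighter the array. Il1b read 1.36, -2.34 and -1.15 at day 7 and 2.08, 3.03 and 2.6 at day 42 (3.28 ± 0.79, adjusted p = 0.0568). Il6 had 1.93, -2.53 and -2.18 against -0.93, 1.1 and -0.3, with day 7 replicate 1 above every day 42 array (0.88 ± 1.09, adjusted p = 0.643). Of the neutrophil list Ltf, lactoferrin, was the 1 called of 17 (2.39 ± 0.47, adjusted p = 0.0334), and S100a9, a calgranulin, read 3.56, -1.4 and 0.34 against 3.87, 3.61 and 4.36 (3.11 ± 1.07, adjusted p = 0.125). No member of the 18 macrophage genes was called (median 0.79, and 0.37 without day 7 replicate 3). None of the 20 Fc receptor and Syk signalling genes was called either, and their median of 0.63 was 1.22 without day 7 replicate 1 and 0.23 without day 7 replicate 3. Syk, the kinase named in the title of the series, stood at 3.57, 2.46 and 1.45 on day 7 and 3.08, 3.04 and 2.87 on day 42. The day 42 arrays lay inside the day 7 range, and the difference was 0.51 ± 0.42 (adjusted p = 0.473).

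Matrix-degrading enzymes did not share a direction. Mmp12, macrophage elastase, was the 1 of 20 in the metalloproteinase list that rose, from 1.45, 0.86 and -0.83 to 3.4, 2.49 and 3.19 (2.53 ± 0.56, 5.8-fold, adjusted p = 0.0473). Unoperated uMT aorta had it at -5.38 ± 1.05 (SD, n = 3). Its call was lost without any 1 array except day 7 replicate 1, with adjusted p up to 0.151. Mmp23 fell from 3.48, 4.38 and 4 to 2.32, 2.42 and 2.9 (-1.41 ± 0.27, adjusted p = 0.0329). Mmp9, gelatinase B, read 1.96, -5.23 and -5.05 at day 7 and -2.5, -2.81 and -1.85 at day 42, and Mmp13, a collagenase, 2.62, -3.78 and -4.83 against 2.01, 1.22 and 2.1. Both had day 7 replicate 1 more than 6 units above its mates, and neither was called (adjusted p = 0.904 and 0.196). Mmp2, gelatinase A, was at 4.39, 4.6 and 3.71 against 3.57, 3.78 and 3.41 (-0.65 ± 0.29, adjusted p = 0.207).

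Lipid-associated macrophage and osteoclast genes included Mmp12 and no other call among 21. Spp1, osteopontin, was at 6.4, 3.24 and 1.63 on day 7 and 5.73, 4.68 and 5.22 on day 42 (1.45 ± 0.91, adjusted p = 0.349). Trem2, a lipid receptor of macrophages, read 6.44, 5.21 and 3.84 against 6.9, 6.32 and 6.25 (1.32 ± 0.54, adjusted p = 0.178), and Gpnmb differed by 1.27 ± 0.6 (adjusted p = 0.227). Retnla, a marker of alternatively activated resident macrophages, read -5.99, 2.16 and -3.19 on day 7 and 3.82, 2.86 and 3.9 on day 42. The large difference, 5.87 ± 1.52, missed the threshold (adjusted p = 0.0661), with day 7 arrays that spanned more than 8 units. Unoperated uMT aorta had it at 5.35 ± 0.28 (SD, n = 3). Stfa3, a stefin of neutrophils, was higher by 3.79 ± 0.95 (adjusted p = 0.0618), Hmox1 lower by 0.24 with a standard error of 0.86, and Col11a1 lower by 1.45 with a standard error of 0.85.

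Prg4, lubricin, a lubricating proteoglycan of joints and other gliding surfaces, rose in all arrays, from 2.79, -0.27 and -0.52 to 5.24, 4.18 and 4.82 (4.08 ± 0.74, adjusted p = 0.0261). Day 7 replicate 1 was the highest of its group. Lingo4, a leucine-rich repeat membrane protein, was not above background on any day 7 array and read -1.26, -1.84 and -1.46 at day 42, a rise of at least 4.83-fold. It had the smallest adjusted p of the comparison together with Nrk, 0.000817, and both stayed called with array signal as a covariate (adjusted p = 0.0129). Sfrp5, the 1 called of 12 inhibitors of Wnt signalling, rose from -3.82, -1.08 and -2.49 to 1.15, 0.59 and 2.28 (3.81 ± 0.62, adjusted p = 0.0202). Chad, chondroadherin of cartilage, was the 1 called of 13 bone and cartilage genes (2.17 ± 0.39, adjusted p = 0.0243). Sost, which codes for the Wnt inhibitor sclerostin, was at -5.88, -2.41 and -1.97 on day 7 and -4.51, -3.8 and -2.69 on day 42 (adjusted p = 0.903).

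Sox10, the transcription factor of the Schwann lineage, rose from -2.85, -1.31 and -1.5 at day 7 to 0.15, -0.12 and 0.45 at day 42, without overlap (2.05 ± 0.37, adjusted p = 0.0247). The 11 measured genes of the nerve list had a median of 0.52, and of 1.01 without day 7 replicate 1 and 0.86 without day 42 replicate 1. Immediate early genes, which respond within minutes to stress and handling of tissue, had 2 rises of 13. Egr1 went from 2.31, 2.9 and 2.45 to 3.66, 3.73 and 3.7 (1.14 ± 0.23, adjusted p = 0.0365), and Ier2 rose by 1.17 ± 0.27 (adjusted p = 0.0496). The call of Ier2 was lost when any 1 of the 6 arrays was left out. The mean level of this list was 0.65 to 1.24 in the day 7 arrays and 1.59 to 1.71 in the day 42 arrays, and the part of tissue handling was not tested. Hspa1a, a heat shock protein, was lower by 2.62 with a standard error of 0.64 (adjusted p = 0.0571).

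Some of the largest rises followed the signal of the array. Olfr553, an olfactory receptor gene, read -5.69, -6.26 and -5.67 at day 7, below background, and -0.22, -1.81 and -2.56 at day 42. E030044B06Rik read -5.57, -6.33 and -5.71 against -0.78, -2.01 and -3.02, and C230057A21Rik -0.39, -2.15 and -1.91 against 3.9, 2.1 and 0.82. Olfr1097, another olfactory receptor gene, read -2.4, -4.4 and -5.49 against 1.71, 0.01 and -1.3. In all 4 the day 42 value was highest on replicate 1, the dimmest array, and lowest on replicate 3, the brightest. Outside the 6 arrays, 2 dim ones were set beside their group mates, WT sham day 42 replicate 2 (75th percentile of signal 36.1, mates 190 and 254) and unoperated uMT replicate 2 (90.7, mates 174 and 312). The WT sham array lay alone on its slide and was scanned on another day than its mates. The unoperated uMT array lay on another slide than replicate 1 of its group. Signal therefore cannot be told apart from slide and scan day in the WT sham array. Olfr553 was at -1 on the WT sham array, against a mean of -6.16 on its mates, and C230057A21Rik at 3.09 against -2.33. From day 7 to day 42 Olfr553 was at least 4.8-fold higher and E030044B06Rik at least 3.62-fold. Such bounds, here and for other genes, allow for background and not for array signal. Of the 328 rises, 159 (48.5%) were higher on each of these arrays than on both of its mates, against 25.7% of all genes. The same held for 17 of the 201 falls (8.46%). Among the 14 largest rises it held for 7 (50%), Cxcl3, Sfrp5 and Casr included. In the other direction, 68 of the 201 that fell (33.8%) were lower on each of these arrays than on both mates, against 20.2% of all genes, and Gdpd2, Capn6 and Lurap1l were among them. The part of array signal in these calls was not tested beyond the fit with signal as a covariate, in which 4 genes were called higher and 1 lower. Casr, the calcium-sensing receptor, Stra6, a retinol transporter, Tmem178 and Slurp1 complete the 14 largest rises, with changes from 3.7 to 4.08 and adjusted p from 0.015 to 0.028, and Casr, below background on all day 7 arrays, was at least 5.23-fold higher.

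**Figure D4:**
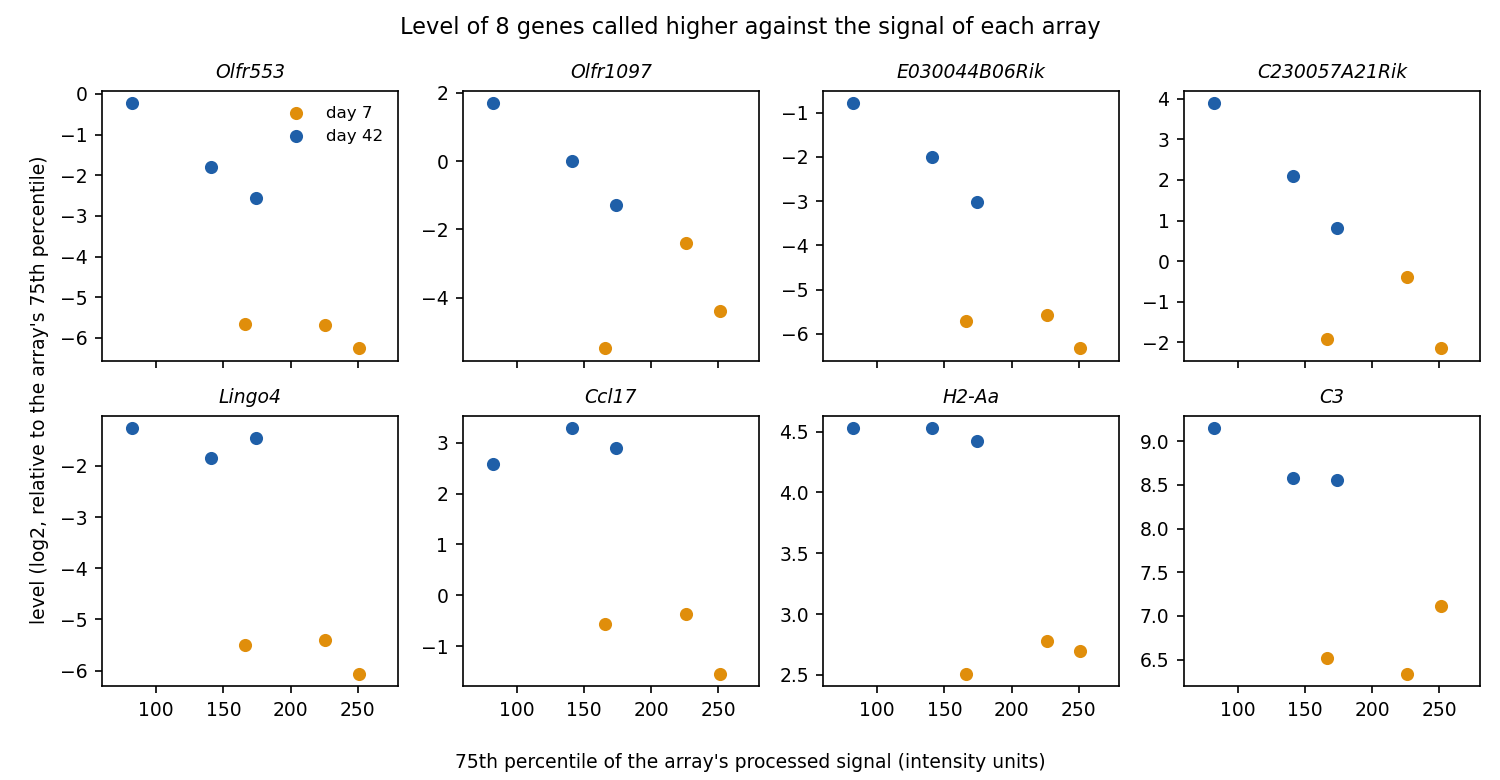
Each panel plots 1 gene called higher, with the 75th percentile of processed signal of each array on the x axis (intensity units) and the gene's level on the y axis (log2 signal minus that percentile), for the 3 day 7 arrays, orange, and the 3 day 42 arrays, blue. In the upper 4 panels the day 42 values fall as signal grows, as in Olfr553 from -0.22 to -2.56. In the lower 4 the day 42 values span a narrower range, as in H2-Aa at 4.42 to 4.53 and Ccl17 at 2.59 to 3.29. C3 is still highest on the dimmest array. The y axes differ between panels.

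B cell genes were checked against the genotype. Ms4a1, which codes for CD20, and Jchain, the joining chain of secreted antibody, were not well above background on any of the 6 arrays. In WT aorta after CaCl2 Jchain stood at 0.66 ± 0.54 (SD, n = 3) on day 7 and 5.52 ± 1.23 on day 42. Cd79a read -2.79, -2.47 and -2.71 at day 7 and -3.06, -2.91 and -2.67 at day 42, and Cd79b -1.13, -1.13 and -1.26 against -0.67, -0.68 and -1.29. Both were detected: Cd79a was well above background on 3 day 7 and 2 day 42 arrays, and Cd79b on all 6. In WT aorta after CaCl2 Cd79a stood at -1.72 ± 0.31 (SD, n = 3) on day 7 and -1.36 ± 0.33 on day 42. Cd79b stood there at 0.55 ± 0.36 and 1.52 ± 0.59. None of the 13 B cell and 7 plasma cell genes measured was called, with medians of 0.3 and 0.14, which ran from 0.25 to 0.67 and from -0.19 to 0.55 without 1 array.

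The smooth muscle, red cell, skeletal muscle, interferon-induced, fibroblast, endothelial and mast cell lists had no called member. Smooth muscle genes, which check the label of aorta, were bright in all arrays: Acta2, smooth muscle actin, read 7.13, 9.34 and 9.99 at day 7 and 7.55, 8.82 and 9.34 at day 42, and Myh11, smooth muscle myosin, 2.75, 5.73 and 6.79 against 5.64, 5.33 and 6.24. Day 7 replicate 1 was the lowest in both genes. The mean level of the 18 contractile genes was 2.3 to 4.97 at day 7 and 2.78 to 4.42 at day 42, and their median change of -0.35 ran from -1.26 without day 7 replicate 1 to 0.28 without day 7 replicate 3. Red cell genes had a positive change in all 5 members (median 2.21, with 1.19 without day 7 replicate 3 and 3.11 without day 42 replicate 1), as with Hba-a1, a globin chain, at 4.32, 4.84 and 1.4 against 4.56, 6.73 and 5.9. Skeletal muscle genes had a median of -1.04, and of -0.4 without day 7 replicate 1, with Tnnc2, a fast troponin, at 3.45, 0.46 and 1.35 against -1.71, -0.69 and -0.57 (adjusted p = 0.0511). Interferon-induced genes had a negative change in 15 of 16 (median -0.58, with -0.29 without day 7 replicate 1 and -1.19 without day 7 replicate 3). The fibroblast, endothelial and mast cell lists had medians of -0.3, -0.32 and 0.22, and without 1 array these ran from -0.43 to -0.05, from -0.52 to -0.13 and from -0.17 to 0.71. Of 44 lists in all, 17 had a called member and 27 had none, with medians of -1.04 to 2.21 in the latter. The lymph node list, with 9 measured members, had 1 call and a median of -0.02 (-0.14 to 0.36 without 1 array). The part of such cells in the calls above was not tested.

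Whether the same changes occurred with B cells was asked by setting the uMT change against that in WT aorta after CaCl2, which shares no array with it. No gene differed at an adjusted p below 0.05 by limma, and 2424 (10.4%) had an unadjusted p below 0.05. Of the genes that rose in uMT, 296 of 328 had a positive change in WT, with medians of 0.93 in WT and 2.11 in uMT. Of those that fell, 177 of 201 had a negative one, with medians of -0.39 in WT and -1.22 in uMT. Both sets were chosen by their uMT change, so the uMT and WT medians cannot be compared as sizes. Among all genes 13517 of 23267 shared the sign. The WT CaCl2 arrays also shared a slide, with the day 42 arrays after those of day 7. Their 75th percentile of signal was 354, 274 and 418 at day 7 and 278, 338 and 183 at day 42. The part of position and signal in the shared signs was not tested. C3 was higher by 2.21 in WT, from 7.26 ± 0.22 (SD, n = 3) to 9.47 ± 0.26, and the difference of the changes, uMT minus WT, was -0.11 ± 0.36 (adjusted p = 0.924). H2-Eb1 differed by 0.05 ± 0.28 (adjusted p = 0.957) and Cd74 by 0.08 ± 0.32 (adjusted p = 0.937). Among named genes the lowest adjusted p was that of Lurap1l, which was at -0.04 ± 0.2 and 0.16 ± 0.44 in WT (-2.39 ± 0.33, adjusted p = 0.248). For Hc the difference was 1.98 ± 0.39 (adjusted p = 0.358), for Clec9a 1.59 ± 0.3 (adjusted p = 0.358) and for Jchain -4.72 ± 1.02 (adjusted p = 0.368). Without day 7 replicate 1, 239 genes were called with a higher and 52 with a lower change in uMT.

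The sham operation gave the change over the same weeks without calcium. No gene differed at an adjusted p below 0.05 by limma between the CaCl2 and sham changes in uMT, and 2531 (10.9%) had an unadjusted p below 0.05. Cthrc1 stood at 1.7 ± 0.22 (SD, n = 3) on day 7 after sham and -3.98 ± 0.8 on day 42, and the CaCl2 change differed from the sham change by 1.13 ± 0.53 (adjusted p = 0.469). Of the genes that fell after CaCl2, 191 of 201 had a negative sham change, with a sham median of -1.27. Of those that rose, 257 of 328 had a positive one, with a sham median of 0.96. Among all genes 17062 of 23267 shared the sign. Both sets were chosen by their CaCl2 change, so the CaCl2 and sham medians cannot be compared as sizes. Nrk, Tnmd and Mfap2 had sham differences of -2.52, -3.61 and -2.39. Cell division genes had a sham median of -2.05. The sham arrays differed in signal as well, with a 75th percentile of 418, 367 and 397 at day 7 and 231, 121 and 95.7 at day 42, and the part of this in the sham changes was not tested. The MHC class II list had a sham median of -0.98, and 7 of its 17 members were lower, and 0 higher, on both dim arrays above than on their mates. H2-Aa stood at 3.43 ± 0.12 on day 7 and 2.44 ± 1.01 on day 42 after sham, and the CaCl2 change exceeded the sham change by 2.83 ± 0.55 (adjusted p = 0.258). C3 went from 6.74 ± 0.46 to 6.27 ± 0.74 after sham, a difference from the CaCl2 change of 2.58 ± 0.54 (adjusted p = 0.263), and for Prg4 the sham levels were -1.26 ± 0.65 and -1.37 ± 0.53. Egr1 was higher by 1.17 after sham and by 1.14 after CaCl2, with a difference of -0.02 ± 0.4 (adjusted p = 0.984). Without sham day 42 replicate 1, 137 genes were called with a higher and 13 with a lower change after CaCl2, and without day 7 replicate 1, 2 or 3 after CaCl2, 10, 1 and 2 with a higher one.

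**Figure D5:**
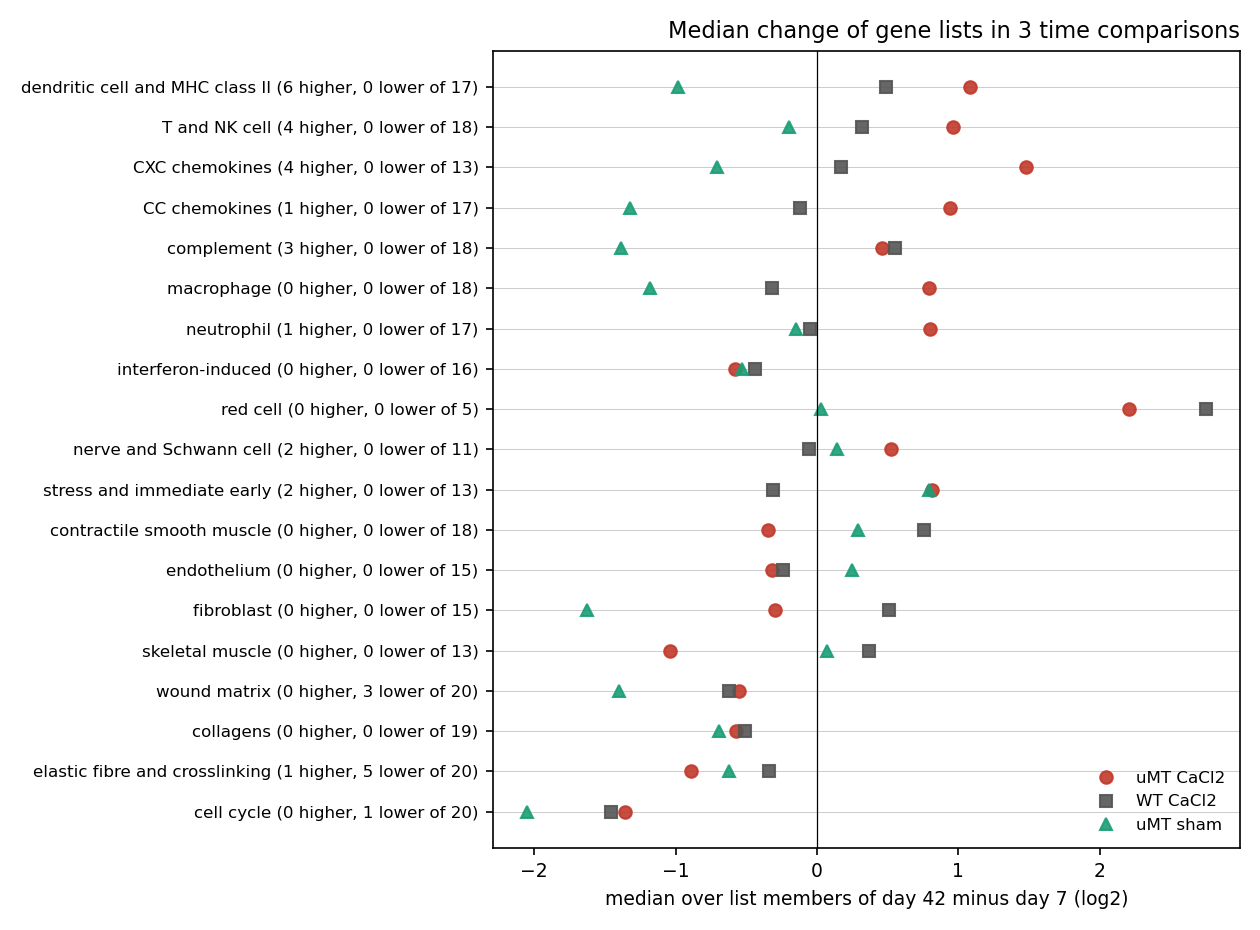
Median change from day 7 to day 42 (log2, x axis) of 19 gene lists in uMT aorta after CaCl2, red circles, WT aorta after CaCl2, grey squares, and uMT aorta after sham, green triangles. Each label gives how many measured members were called in uMT after CaCl2. The cell cycle list is lowest in all 3, at -1.36, -1.46 and -2.05, and the dendritic cell and MHC class II list is at 1.08, 0.49 and -0.98.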

How the data were processed

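Total RNA of mouse aorta was measured on 1-colour Agilent arrays, 1 array per sample. The deposited spot intensities were made with Agilent Feature Extraction 10.7.1.1, per the file headers although the submitters' processing notes give version 9.5.1.1. That software removed background and trends across the array and replaced the signal of dim spots by a surrogate. The records name RNeasy and SV Total RNA kits, and which was used is not settled. Probe coordinates are mm9, per the file headers.

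Of 55681 probes 24 with flagged spots were left out. The log2 of the processed intensity was centred on each array's 75th percentile. Probes well above background on all 3 arrays of at least 1 of 10 groups were kept, and a gene was read from its brightest kept probe (6700 of 23267 genes had several). Names came from the RefSeq table through the accession of 27304 probes, a symbol of 3527 or a synonym of 553, and from the file for 24273. limma 3.58.1 (R 4.3.3) fitted means of the 4 CaCl2 groups on 12 arrays with empirical Bayes and Benjamini-Hochberg adjustment over all genes. The fit was tested on simulated data. There each gene had independent noise of the same spread in all groups, so effects of array signal or of a single deviating array were not covered. The CaCl2 and sham changes were compared on the 12 operated uMT arrays. The 3 arrays a group limit the precision, and an exact permutation test of 3 against 3 cannot go below 0.1.

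Members, gene lists and tests were chosen with earlier results of these data known. Text genes are the 14 largest rises and falls that were called, had a reference symbol, did not overlap and were above background on all arrays of the higher group, up to 6 members of each list by smallest p, and a fixed set that includes Syk, Eln and Mmp9. Alternatives varied the background correction, normalization, filter, probe summary, arrays fitted, array weights, replicate block and single arrays. Array signal as a covariate and a filter on the 6 arrays were added after seeing the data.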

Additional observations from a re-analysis of the deposited data

How the results depend on the processing

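Of 529 calls, 423 were called after quantile normalization, 411 in the authors' matrix, 376 after normexp, 103 with the replicate block and 3 with the 6 arrays alone, and all that were tested had the same sign in every alternative. The counts of genes higher and lower from day 7 to day 42 were 328 and 201. They were 583 and 143 with the percentile over probes detected on all arrays, 348 and 357 with normexp, 218 and 75 with no filter, 476 and 373 with the filter on the compared groups, 345 and 302 with probes above background on all 6 arrays, 1 and 2 with the 6 arrays alone, 127 and 99 with all 30 arrays, 900 and 1025 with every array but the dimmest, WT sham day 42 replicate 2, 4270 and 4123 with array weights, and 4 and 1 with array signal as a covariate. With no filter the median of all genes moved to 0.25 from -0.05, and with the percentile over detected probes to 0.06. Rises were 49.3% of calls in the authors' matrix and 49.4% with normexp. Without 1 array the counts ran from 44 to 917 and from 21 to 425. The cause of these shifts was not tested.

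Replicate numbers did not pair the arrays (correlations 0.289, -0.099 and -0.0228), and the fit with the replicate block gave 93 genes higher and 28 lower. Of 59 named genes that were called, 15 were called whichever array was left out.

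For the change in uMT minus WT, higher and lower counts were 0 and 0, 1 and 9 without that dimmest array, 1465 and 1294 with array weights, 0 and 4 with normexp, 0 and 6 with the covariate, and 0 to 239 and 0 to 52 without 1 array. For CaCl2 minus sham they were 0 and 0, 2 and 0 after quantile normalization, in the authors' matrix and with the covariate, 1 and 0 with normexp, 10 and 0 with all 30 arrays, 111 and 16 without that dimmest array, 651 and 220 with array weights, and 0 to 137 and 0 to 13 without 1 array.

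Signs turned for genes that were not called. Jchain was at -0.41 after quantile normalization, -0.06 with normexp, -0.43 in the authors' matrix, -0.12 with array weights and -1.06 with the covariate. Ms4a1 was at -0.4, -0.05, -0.44 and -0.26 in the first 3 and the last of these. Mmp9 was at -0.64 with normexp, Myh11 at -0.2 with array weights, and with the covariate Acta2 was at 0.29, Cd79b at -0.03 and Sost at 0.21. Without 1 array the change ran from -1.1 to 0.33 for Acta2, -1.05 to 1.02 for Hmox1, -0.44 to 0.72 for Jchain, -0.84 to 2.75 for Mmp9, -0.08 to 0.63 for Ms4a1, -0.53 to 1.5 for Myh11, -1.47 to 0.48 for Sost and -0.02 to 1.05 for Syk.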
